A study of Caenorhabditis elegans with 8 samples.

Results

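The spermatogenesis-defective and sperm function genes of *C. elegans* were examined in RNA sequencing of whole worms given atracurium, a neuromuscular blocker that antagonizes the acetylcholine receptor. The members were taken by name and not by a cutoff on any measured value, though with earlier results of these data known. They were genes whose name in the table starts with *spe-* or *fer-*, together with *fog-1*, *fog-3*, *cpb-1*, *gsp-3*, *gsp-4*, *trp-3*, *snf-10*, *swm-1* and *comp-1*. Of 17521 genes in the table, 31 met this rule. The channel gene *trp-3* was carried under its other name, *spe-41*. Of the sperm genes looked up beyond these, *spe-27*, *spe-29*, *spe-38*, *fer-14* and *spe-13* were not found among the 17521 genes and could not be analysed.

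Both groups were wild-type N2 worms, treated for 24 h from the fourth larval stage and collected at day 1 of adulthood. The treated group had 50 μM atracurium besylate, and the control group had the water vehicle, with 4 samples in each and roughly 1000 worms pooled in every sample. The study's lifespan and healthspan plates also held 5-fluorouracil, a compound that blocks progeny production, and whether the plates of these samples did is not given in the sources used here. The p-values given here measure the spread between these samples.

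In the hermaphrodite, the germ line makes sperm during the last larval stage and then switches to oocytes for the rest of adult life. Spermatocytes load the proteins that sperm will need, among them the major sperm proteins, into fibrous body-membranous organelles, since spermatids transcribe and translate almost nothing. Spermatids are then activated into crawling spermatozoa, which build a pseudopod, fuse their membranous organelles with the cell surface and wait in the spermatheca for an oocyte. *spe* and *fer* mutants were named for sperm that fail at one of these steps.

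The samples held between 27922986 and 60015200 reads on the listed genes, with the deepest in water vehicle replicate 2. The reads of the 31 members ranged from 32 to 28982 per gene over all 8 samples. Atracurium replicates 2 and 4 stood apart, with 615 and 603 genes at 0 reads against 75 to 308 in the water vehicle samples, and with the lowest estimated sample weights (0.342 and 0.507). Across all genes the log2 fold change increased with gene length (Spearman's rho = 0.423 across genes, which are not independent replicates), so values with the length trend subtracted are given for the members described whose estimate moved by more than 0.1 or changed sign. In these bulk samples, fewer sperm per worm and less RNA per sperm cannot be told apart.

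Among the members, 0 met the adjusted threshold (0.05) of limma-trend, a linear model across all genes with moderated variances and Benjamini-Hochberg adjustment, which 0.177% of all genes met. The adjusted p of the members ran from 0.327 to 0.997. The same fit left 0 members lower and 0 higher at an unadjusted p of 0.01, where 1.87% of all genes were lower and 1.2% higher. At an unadjusted p of 0.05, 2 of the 31 members were lower with atracurium, *spe-12* and *gsp-4*, a share near that of all genes (6.63%), and 0 were higher (4.91% of all genes). All atracurium samples lay below all water vehicle samples for 1 member, *spe-12* (3.75% of all genes), and above them for 0 (3.41% of all genes). By limma-voom on the recovered reads, 0 members passed the adjusted threshold (0.177% of all genes), and 4 of 31 were lower at an unadjusted p of 0.05, where 7.33% of all genes were lower.

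The estimated difference was below 0 for 23 members and above 0 for 8. The members' median log2 fold change was -0.25, against -0.01 over all genes, of which 52.3% were below 0. Shifting the samples to a common median moved the median of all genes up by 0.06 and left 21 members below 0, and quantile normalization left 20 below 0. The members' median was -0.10 without atracurium replicate 2 and -0.13 without water vehicle replicate 1.

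**Figure D1:**
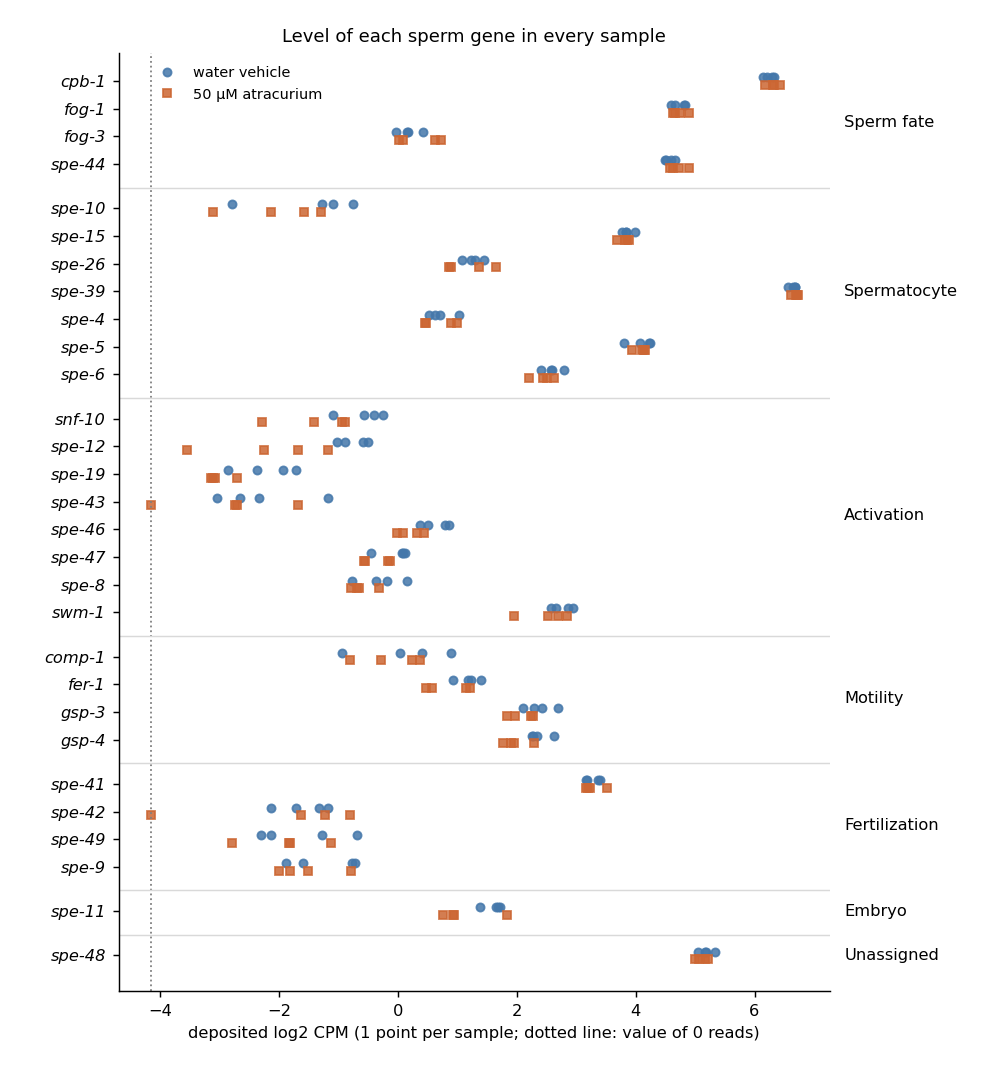
Deposited log2 CPM (the reads of a gene scaled to library size; x axis) of 29 of the 31 members (rows, grouped by stage of sperm development), with 1 point per sample, circles for the 4 water vehicle samples and squares for the 4 atracurium samples; the dotted line marks the value given to 0 reads. For most members the groups overlap, and *spe-12* is the member whose squares all lie to the left of its circles.

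The members differed widely in level. Scaled to transcript length, the highest were *spe-39* at 52.3 CPM per kb, *cpb-1* at 33.7 and *spe-48* at 28.0, and the lowest were *spe-49* at 0.1096 and *spe-42* at 0.113. The mean over all samples was under 2 CPM for 16 members and at or above it for 15, a split made after the values were seen. Of the 16 lower-level members, 14 had an estimate below 0 (median log2 fold change -0.32). Of all 6664 genes under 2 CPM, 61.7% were below 0 (median -0.14). Of the 15 higher-level members, 9 had an estimate below 0 (median -0.06), against a median of 0.01 for the 10857 genes at or above 2 CPM. The summed level of the 16 lower-level members was 11.4, 10.3, 9.84 and 9.34 CPM in water vehicle replicates 1 to 4, and 8.54, 7.36, 9.09 and 8.39 CPM in the atracurium replicates. Those sums did not overlap between the groups, with *spe-12* among the genes summed. The sum over all 31 members, which the higher-level genes dominate, was 344.4 ± 8.8 CPM (SD, n = 4) with water and 345.0 ± 9.5 CPM (SD, n = 4) with atracurium.

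The precision differed in the same way. Standard errors of the log2 fold change were 0.0554 to 0.233 for the higher-level members and 0.217 to 0.630 for the lower-level ones. For 10 members, 9 of them at the higher level, the 95% interval of the log2 fold change lay within 0.5 of 0 on both sides. For the other 21 members the interval reached beyond 0.5 on at least 1 side.

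**Figure D2:**
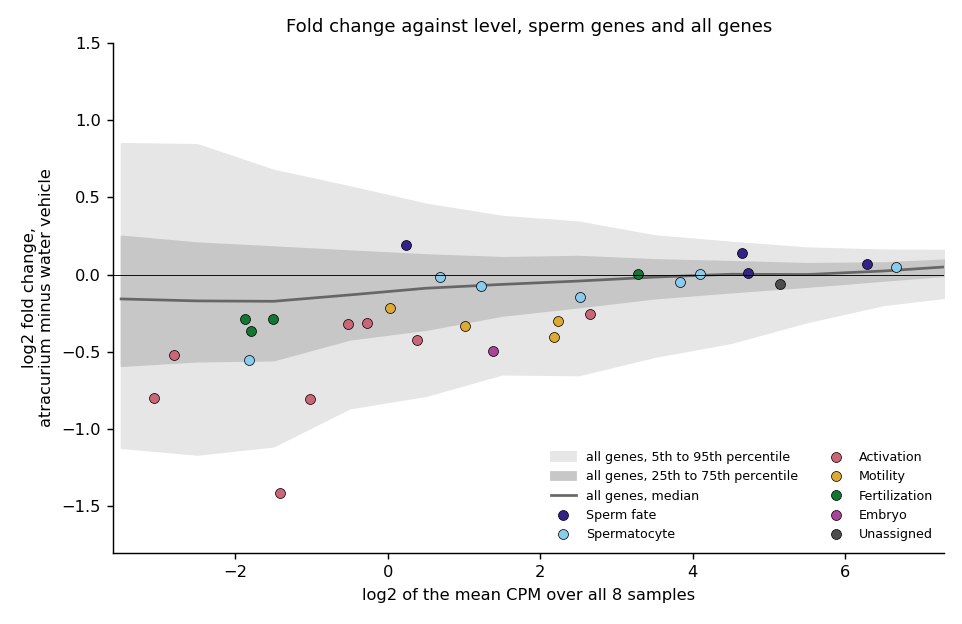
Log2 fold change of 29 of the 31 members (y axis, atracurium minus water vehicle) against the log2 of the mean CPM over all 8 samples (x axis), coloured by stage, over bands holding the middle of all 17521 genes. The fate and spermatocyte genes of higher level sit close to 0, and *spe-12*, at -1.41, is the member outside the lower edge of the pale band.

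The 4 genes of sperm fate and the spermatogenesis programme all had estimates at or just above 0 with atracurium (median log2 fold change 0.10), and none passed the test. Their summed level was 127.0 ± 6.2 CPM (SD, n = 4) with water and 133.6 ± 7.1 CPM (SD, n = 4) with atracurium. *fog-1*, a cytoplasmic polyadenylation element binding (CPEB) protein needed for germ cells to become sperm, stood at 28.4, 24.2, 25.3 and 27.9 CPM in the water vehicle samples and at 29.7, 26.8, 24.6 and 25.3 CPM in the atracurium samples. The groups overlapped fully, and the log2 fold change was 0.01, with a 95% interval of -0.18 to 0.19. Its sign turned with the length trend subtracted (-0.04).

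*fog-3*, a Tob family protein that acts with *fog-1* in the choice of sperm fate, was far lower in level, at 0.918, 1.05, 1.29 and 1.07 CPM with water and 1.49, 1.01, 1.61 and 0.959 CPM with atracurium. Replicates 1 and 3 of the atracurium group were the highest and replicate 4 was near the lowest, so the groups overlapped (log2 fold change 0.19 ± 0.25, SE). *cpb-1*, another CPEB protein, which spermatocytes need to progress through meiosis, measured 78.5, 70.7, 74.3 and 79.9 CPM with water and 86.5, 79.2, 80.1 and 72.4 CPM with atracurium. Its atracurium replicate 1 was above every other sample and replicate 4 was inside the water range (log2 fold change 0.07 ± 0.07, SE; adjusted p = 0.695 by limma-trend). *spe-44*, a transcription regulator of spermatocyte genes, had a mean of 23.7 ± 1.2 CPM with water and 26.2 ± 2.6 CPM with atracurium (SD, n = 4), for a log2 fold change of 0.14 and an unadjusted p of 0.117 by limma-trend.

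The 8 genes of the spermatocyte and its fibrous body-membranous organelles gave a summed level of 142.0 ± 6.9 CPM with water and 143.9 ± 4.0 CPM with atracurium (SD, n = 4). Estimates were below 0 for 6 of them (median log2 fold change -0.06), and none passed the test. *spe-39*, a vesicle trafficking protein that works beyond the germ line too, was the most abundant of the 31, at 102, 102, 100 and 94.6 CPM with water and 105, 106, 97.8 and 104 CPM with atracurium. The log2 fold change was 0.05, with a 95% interval of -0.07 to 0.17. Without atracurium replicate 3, the only sample that had made its groups overlap, atracurium was the higher, and 11.4% of all genes did not overlap. *spe-39* made up most of the summed level of its stage.

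*spe-15*, a myosin VI that sorts cell contents as spermatids bud off, and *spe-5*, a B subunit of the vacuolar proton pump, had log2 fold changes of -0.05 and 0.00 (*spe-5* was at -0.022 with the length trend subtracted), and *spe-6*, a casein kinase I type enzyme, had -0.15. *spe-4*, a presenilin of the membranous organelle, was at -0.02, and *spe-26*, a kelch-repeat protein linked to actin, was at -0.07. *spe-10*, a palmitoyltransferase of the same organelles, was read at 0.0888, 0.536, 0.358 and 0.413 CPM with water and at 0.171, 0.0593, 0.353 and 0.278 CPM with atracurium. Its spread within each group was wide, from 3 to 33 reads in the water vehicle samples, and the groups overlapped (log2 fold change -0.55, 95% interval -1.70 to 0.59).

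All 8 genes of sperm activation had estimates below 0 with atracurium (median log2 fold change -0.47), and 0 of the 8 passed the adjusted threshold. All of them but *swm-1* had a mean under 2 CPM, where 61.7% of all genes had estimates below 0. Each of the 8 stayed below 0 under all 18 alternative settings of scaling, filter, model, gene length, block and left-out sample in which it was tested. These settings draw on the same samples, and *swm-1* came as close to 0 as -0.021 and *spe-43* as -0.051. The summed level of the 8 was 11.04, 12.6, 10.9 and 11.4 CPM in water vehicle replicates 1 to 4, and 10.3, 6.26, 8.96 and 10.4 CPM in the atracurium replicates. Every atracurium sum was below every water vehicle sum, with replicate 2 the lowest. Most of each sum was *swm-1*, at a mean of 6.76 CPM with water and 5.78 CPM with atracurium. The mean sum with atracurium differed from that with water by -22.0%, and by -14.1% when atracurium replicate 2 was left out, an alternative added after the data were seen. That sample also had 9 of the 31 members at their lowest value and 2 at 0 reads, and the part of sample quality in these values was not tested.

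*spe-12*, a membrane protein of spermatids that relays the activation signal of the *spe-8* group, had the most negative estimate of the 31. The gene (WBGene00004966) lies on the minus strand of chromosome I at 8224539 to 8226297 in WBcel235. It was read at 0.651, 0.438, 0.608 and 0.482 CPM with water and at 0.257, 0.0297, 0.385 and 0.155 CPM with atracurium. All 4 atracurium samples lay below all 4 water vehicle samples, with replicate 2 at 1 read and replicate 3 closest to the water range. The log2 fold change was -1.41 ± 0.47 (SE), with a 95% interval of -2.43 to -0.39. In limma-trend its p was 0.0109 before adjustment and 0.327 after. The exact permutation test over the samples gave a two-sided p of 0.0286, the smallest that 4 against 4 can give. Summed reads were 80 with water and 27 with atracurium, a ratio of 0.389 after scaling to library size (95% exact binomial interval 0.242 to 0.609, for counting error only). Leaving out 1 sample at a time moved the log2 fold change between -1.74 and -0.95, the latter without atracurium replicate 2, and the adjusted p stayed between 0.183 and 0.610 over all settings.

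The other membrane proteins of this signal were scarcely covered. *spe-19* had 7, 5, 7 and 4 reads in the water vehicle samples and 2, 2, 3 and 2 in the atracurium samples, and 3 of its 4 atracurium values in CPM were below all water values. Its read ratio was 0.451, with an interval of 0.184 to 1.01 that includes no difference. *spe-43* had 13, 4, 4 and 3 reads with water and 9, 0, 3 and 3 with atracurium. The high value in each group was in replicate 1, the groups overlapped, and the log2 fold change of -0.52 was -0.08 without atracurium replicate 2. *spe-8*, the tyrosine kinase that gives the group its name, had a mean of 0.782 ± 0.218 CPM with water and 0.603 ± 0.096 CPM with atracurium (SD, n = 4), for a log2 fold change of -0.32.

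*snf-10*, a transporter-like protein through which sperm respond to activating proteases, was at 0.622, 0.698, 0.787 and 0.413 CPM with water and at 0.486, 0.148, 0.321 and 0.464 CPM with atracurium. The overlap between the groups came from water vehicle replicate 4, the lowest of its group (log2 fold change -0.80, unadjusted p = 0.0524, adjusted p = 0.438 by limma-trend). *spe-46*, which sets when activation occurs, stood at 1.36, 1.67, 1.75 and 1.24 CPM with water and 1.20, 1.01, 0.931 and 1.30 CPM with atracurium. Atracurium replicate 4 was above water vehicle replicate 4, the other atracurium samples were below all of the water range, and the log2 fold change was -0.42 (unadjusted p = 0.0814 by limma-trend). *spe-47*, a protein with a major sperm protein domain that also holds back early activation, had a log2 fold change of -0.31, with overlapping groups.

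*swm-1*, a secreted protease inhibitor that keeps sperm from activating too early in males, was at 6.28, 7.63, 5.94 and 7.20 CPM with water and 6.43, 3.83, 5.72 and 7.15 CPM with atracurium. Only replicate 2 of the atracurium group lay well outside the water range. The log2 fold change was -0.25 and became -0.07 without that replicate, and -0.02 with the length trend subtracted, its transcript being 604 nt long.

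**Figure D3:**
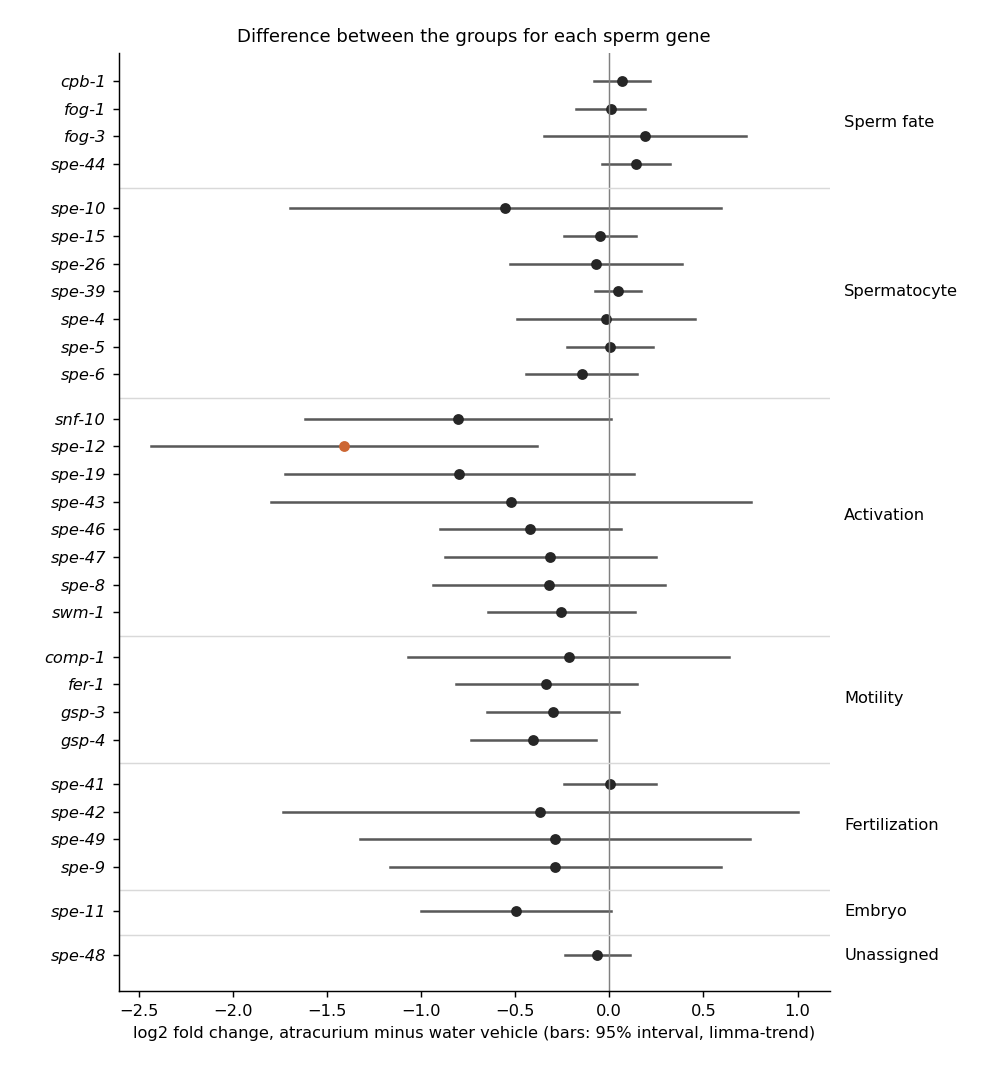
Log2 fold change of 29 of the 31 members (x axis, atracurium minus water vehicle) with the 95% interval from limma-trend, in rows grouped by stage; the coloured point is the member whose groups did not overlap. The intervals of *spe-12* (-2.43 to -0.39) and *gsp-4* (-0.74 to -0.07) lie below 0 and those of the other 27 members drawn include 0.

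The 4 genes of motility, membrane fusion and sperm competition also had estimates below 0 (median log2 fold change -0.32), and none passed the adjusted threshold. Their summed level was 15.8, 12.7, 13.9 and 12.5 CPM with water and 9.60, 11.8, 12.4 and 9.44 CPM with atracurium, a difference of -21.2% in the means. The atracurium sums all lay below the water sums, though by little between atracurium replicate 3 and water vehicle replicate 4. That difference lay between -25.03% and -16.9% when 1 sample at a time was left out.

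*gsp-4* and *gsp-3* encode nearly identical protein phosphatase 1 enzymes of sperm that act in meiosis and in pseudopod movement, and reads from shared sequence cannot be assigned to 1 of them with certainty. *gsp-4* (WBGene00020187), on the minus strand of chromosome I at 3838237 to 3839673 in WBcel235, measured 6.16, 4.77, 4.72 and 5.03 CPM with water and 3.80, 3.68, 4.82 and 3.34 CPM with atracurium. Of the atracurium samples, 3 were below all water values, and replicate 3 was inside their range. The log2 fold change was -0.40 ± 0.15 (SE), with a 95% interval of -0.74 to -0.07. In limma-trend its p was 0.0219 before adjustment and 0.365 after. Without atracurium replicate 3, the only sample that had made the groups overlap, the log2 fold change was -0.51 and the groups were apart. The unadjusted p was then 0.00689 by limma-trend. Without that sample, 11.4% of all genes did not overlap and 2.21% were lower at an unadjusted p of 0.01 in limma-trend. *gsp-3* measured 5.30, 4.84, 6.40 and 4.27 CPM with water and 3.86, 4.78, 4.66 and 3.53 CPM with atracurium. Its groups overlapped through water vehicle replicate 4, and the log2 fold change was -0.30 (unadjusted p = 0.0873 by limma-trend).

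*fer-1*, a ferlin that fuses membranous organelles with the plasma membrane, was at 2.58, 1.85, 2.29 and 2.20 CPM with water and 1.43, 2.26, 2.15 and 1.33 CPM with atracurium. Replicates 1 and 4 of the atracurium group were below all other samples while replicates 2 and 3 were within the water range (log2 fold change -0.34, unadjusted p = 0.155 by limma-trend, and -0.46 and 0.0504 with the length trend subtracted). *comp-1*, which gives sperm their guidance and competitive ability, varied most among the samples of this stage, at 1.81, 1.27, 0.465 and 0.965 CPM with water and 0.514, 1.13, 0.771 and 1.24 CPM with atracurium. The groups overlapped fully, and the log2 fold change of -0.21 was 0.05 without water vehicle replicate 1.

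**Figure D4:**
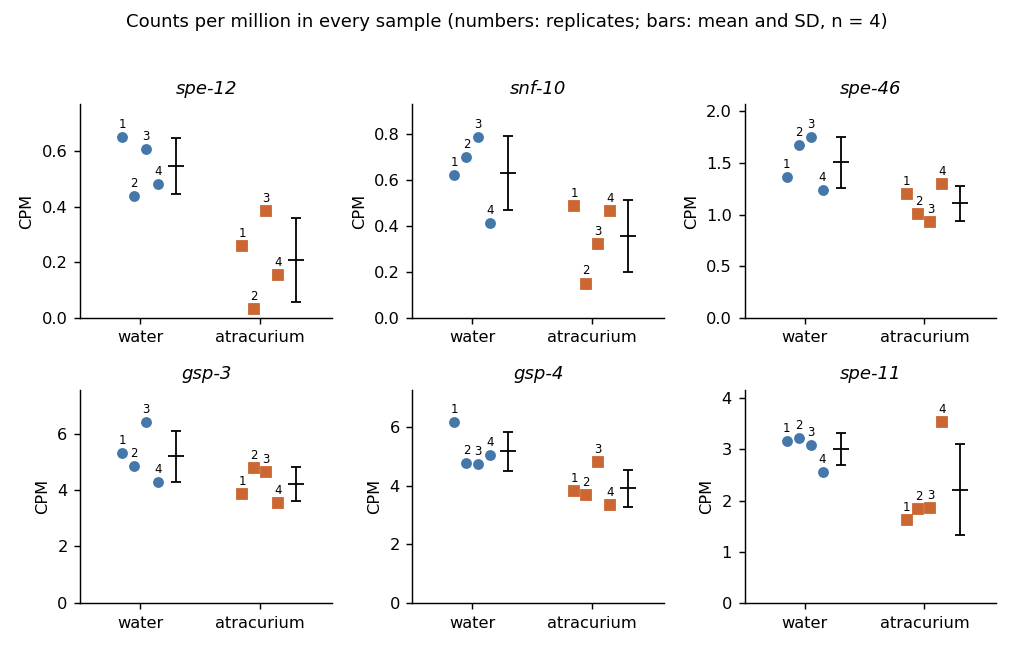
CPM (y axis, from 0) in every sample for 6 members, with replicate numbers beside the points and bars for the mean and SD of each group (n = 4). The 6 were chosen after the values were seen, from the members with the lowest unadjusted p in limma-trend. *spe-19*, at 7 reads or fewer per sample, is left out. *spe-12* has no overlap between groups, *gsp-4* overlaps through atracurium replicate 3 at 4.82 CPM, and *spe-11* through atracurium replicate 4 at 3.53 CPM.

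The 5 genes of fertilization had a summed level of 10.9 ± 0.7 CPM with water and 10.8 ± 1.2 CPM with atracurium (SD, n = 4), and none passed the test. Most of that sum was *spe-41*, a TRPC-type cation channel that moves to the sperm surface at activation and is needed for fusion with the oocyte. It lay between 8.91 and 10.5 CPM in the 4 water vehicle samples and was at 9.40, 8.90, 11.4 and 9.16 CPM with atracurium. The highest and the lowest of the 8 samples were both in the atracurium group, and the log2 fold change was 0.00 (95% interval -0.24 to 0.25), or -0.066 with the length trend subtracted.

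The other fertilization genes described had means under 0.4 CPM in both groups. *spe-9*, a sperm surface protein with epidermal growth factor repeats, and *spe-49* had log2 fold changes of -0.29 each, with overlapping groups. *spe-42*, a membrane protein related to *spe-49*, had 13, 21, 7 and 5 reads with water and 13, 9, 16 and 0 with atracurium. Its log2 fold change of -0.37 rested on the sample with 0 reads, atracurium replicate 4, and was 0.37 without it.

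*spe-11*, which sperm supply to the embryo and which the embryo needs to develop, lies on the minus strand of chromosome I at 5330578 to 5332169 in WBcel235 (WBGene00004965). It measured 3.17, 3.23, 3.08 and 2.55 CPM with water and 1.63, 1.84, 1.86 and 3.53 CPM with atracurium. Atracurium replicates 1 to 3 were below all water vehicle samples, and replicate 4 was above all of them. The log2 fold change was -0.49 ± 0.23 (SE), and its p in limma-trend was 0.0548 before adjustment and 0.439 after. Without atracurium replicate 4 the estimate was -0.74, the groups no longer overlapped, and p in limma-trend was 0.00147 before adjustment and 0.156 after. With a weight for each sample the adjusted p was 0.119 by limma-trend, the lowest of any member in any of the settings run.

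*spe-48*, which was placed in no stage, was at 36.1, 32.9, 35.7 and 40.4 CPM with water and 36.02, 37.2, 32.0 and 33.5 CPM with atracurium. The groups overlapped, and the log2 fold change was -0.06. A further 4 genes carry a *spe* name in a later Ensembl release but clone names in the table, so the rule did not take them. Of these, *spe-36*, *spe-54* and *spe-18* had log2 fold changes of -0.69, -0.57 and -0.16 and *spe-51* had 0.23, with 0 at an unadjusted p of 0.01 by limma-trend.

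The members were placed unevenly over the genome. Chromosome I held 16 of them, or 51.6%, against 15.5% of all genes in the table, chromosome V held 7, IV held 5 and III held 3. Chromosomes II and X held 0, with 17.8% and 14.2% of all genes. The median log2 fold change was -0.29 for the members on I, -0.37 on V, -0.07 on IV and 0.00 on III. Exons of 7 members, *spe-12* among them by 6 nt, overlapped a gene on the opposite strand, which the strand-specific counting separates, and 0 overlapped a gene on their own strand.

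Other genes of the pathway were set beside the members from lists by name. The 31 major sperm protein genes (*msp*), which encode the cytoskeletal and signalling protein of sperm, had 30 estimates below 0 and 17 of 31 lower at an unadjusted p of 0.01 (1.87% of all genes), with 0 at an adjusted p of 0.05 by limma-trend. With the length trend subtracted, 27 were below 0 and 3 of the 31 were lower at an unadjusted p of 0.01, where 1.44% of all genes were. Their median log2 fold change was -0.77, and -0.34 with the length trend subtracted, their median length being 384 nt. The *msp* sum was 172.6 to 212.4 CPM in the water vehicle samples and 111.4, 72.6, 129.2 and 168.1 CPM in atracurium replicates 1 to 4. Near-identical *msp* copies share sequence, so these genes are not taken as separate measurements. Within the atracurium group, replicate 2 had the lowest sum for both the *msp* and the activation genes. Replicate 4 had the highest *msp* sum. The activation sums of replicates 1 and 4 were close, at 10.3 and 10.4 CPM, of which *swm-1* alone made up 6.43 and 7.15 CPM. The difference between the *msp* genes and the 31 members was not tested.

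Of 11 genes for sperm chromatin and other sperm proteins, 10 had estimates below 0 and 3 were lower at an unadjusted p of 0.01 by limma-trend (*msd-2*, *msd-4* and *spch-1*, against 1.87% of all genes), with a median of -0.57. With the length trend subtracted the median was -0.23 and 1, *msd-4*, was lower at that threshold. The germ line sex determination genes that act above *fog-1* and *fog-3* had 3 of 10 estimates below 0 and a median of 0.07. They had 0 calls at that threshold in either direction. With the length trend subtracted, 5 of the 10 were below 0 and the median was -0.00026. The 14 oocyte and eggshell genes summed to 13796.4 to 14928 CPM with water and 15075 to 16346.5 CPM with atracurium, without overlap. For 3 of the 14 the groups did not overlap, each higher with atracurium (3.41% of all genes). Of the 14, 12 had estimates above 0 (median 0.10, or 0.057 with the length trend subtracted), and 0 were called at an unadjusted p of 0.01 by limma-trend. Of 8 germ line genes, 6 had estimates above 0 (median 0.09), and 1, *pgl-3*, was higher at that threshold (1.2% of all genes). With the length trend subtracted, 4 of the 8 were above 0, the median was 0.0061 and 0 were called. The 4 markers of the male soma and seminal fluid, which would mark males among the worms, all had estimates below 0 (median -0.17). They ran from -0.0018 for *her-1* to -0.78 for *mab-3*, and *pkd-2* had only 11 reads with water and 6 with atracurium. With the length trend subtracted, 3 of the 4 were below 0 (median -0.17) and *her-1* was at 0.035. With a common median, 3 of the 4 were below 0. The groups of *mab-3* did not overlap (3.75% of all genes), and its p in limma-trend was 0.0324 before adjustment and 0.398 after. The 4 markers summed to 2.28 to 4.06 CPM with water and 2.35 to 2.73 CPM with atracurium. Their part in the members' values was not tested.

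**Figure D5:**
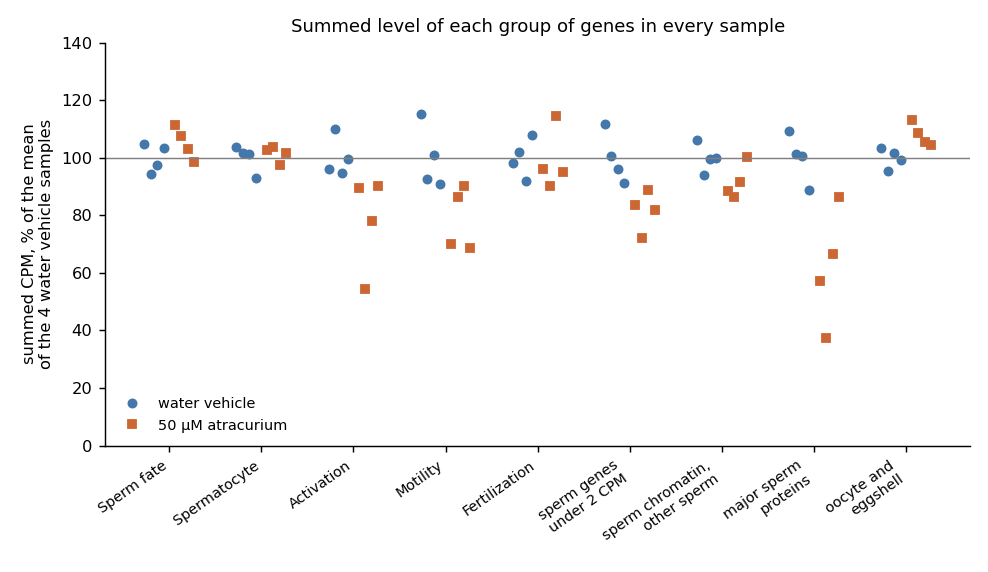
Summed CPM of each group of genes in every sample (y axis), as a percentage of the mean of the 4 water vehicle samples, with circles for water vehicle and squares for atracurium. The fate, spermatocyte and fertilization sums overlap between the groups. The activation, motility and *msp* sums of all 4 atracurium samples lie below those of the water vehicle samples, and the oocyte and eggshell sums lie above. In 4 stages most of the sum is 1 gene: *cpb-1* (fate), *spe-39* (spermatocyte), *swm-1* (activation) and *spe-41* (fertilization).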

How the data were processed

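Libraries were strand-specific and made from polyadenylated RNA of about 1000 whole worms per sample. Per the submitters' processing notes and the study's methods, reads were checked with FastQC, trimmed with Trimmomatic 0.32, aligned with HISAT2 2.1.0 to WBcel235 (Ensembl release 91) and counted per gene by HTSeq 0.11.0. Genes counted no more than 2 times were dropped unless 3 or more samples exceeded that count. The authors deposited the rest as log2 CPM, made with edgeR 3.26.8 (limma 3.40.6 is also named), scaled by the trimmed mean of M-values with a prior count of 1.57 to 3.46 reads. The prior count draws the fold change of a gene with few reads towards 0.

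All 17521 genes were fitted with limma 3.58.1 (limma-trend, R 4.3.3) in a model of 2 groups. Tests were two-sided, with p-values adjusted over all genes by Benjamini-Hochberg. Fold changes and intervals are on this log2 scale. No count test was planned for log2 values. Whole reads were recovered from the deposited log2 values (100% within 0.1 of a whole number), which gave CPM and limma-voom as an alternative. The limit for a gene at 0 is 3 reads, or 0.0487 to 0.107 CPM by sample. Intervals for read ratios cover counting error only. Gene positions and lengths came from a later Ensembl annotation of WBcel235 than the authors used.

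On simulated data with 100 genes changed at each size, the atracurium against water vehicle fit recovered 99% of log2 changes of 1 and 31% of changes of 0.5, with 6 false calls among 17521 genes. The changed genes were drawn only from genes with more reads than most members under 2 CPM have. Every simulated gene was also given the same variation between samples. These shares therefore do not tell how often a change in the lower-level members would be found.

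The members and lists were chosen with earlier results of these data known. Genes described in full were those with groups that do not overlap or an unadjusted p under 0.01, the most abundant member and the lowest and highest fold change of each stage, and the 3 with the widest spread within a group. Every other member was named in its stage, except 2 that enter the counts, medians and sums but are not reported here one by one. Values of further members were added after they were seen. Alternatives were other scalings, a stricter filter, no trend, robust moderation, sample weights, limma-voom, a gene length correction, a replicate block and leaving out each sample.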

Additional observations from a re-analysis of the deposited data

Results flagged for a closer look

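Within each group of 4 samples, the sample farthest from the others was set against the whole range of its group for 29 of the 31 members. Of 58 groups examined, 2 had a gap above Dixon's 95% critical value, where chance alone gives about 1 in 20. *spe-19* stood at a log2 CPM of -2.71 in atracurium replicate 3 (3 reads), above the others of that group at -3.14 to -3.08 (2 reads each). *spe-47* stood at -0.44 in water vehicle replicate 3 (19 reads), below the others at 0.07 to 0.12.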

How the results depend on the processing

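The count of members at an adjusted p of 0.05 was 0 in every one of the 18 alternatives. Over all genes, the 31 called at that threshold became 16 without the mean-variance trend, 139 with sample weights, 20 with the replicate block, 59 with the replicate block and the length trend subtracted, and 17 to 78 without 1 sample. The 538 genes at an unadjusted p of 0.01 became 1098 with sample weights and 306 to 883 without 1 sample, and their split of 328 lower and 210 higher became 272 and 299 with a common median and 267 and 284 with quantile normalization. The count of members lower at that threshold, 0, became 1 with a common median, robust moderation, sample weights, the replicate block, and the block with the length trend subtracted, and 0 to 2 without 1 sample. With all samples kept, that member was *spe-12*, except with sample weights, where it was *spe-11*. The share of all genes lower at that threshold was 1.55%, 1.93%, 3.37%, 1.54% and 1.72% in these settings, in that order. Without 1 sample the share was 1.03% to 2.65%. The members lower were then *spe-12* and *gsp-4* without atracurium replicate 3, and *spe-11* without atracurium replicate 4. The 1 member with groups that do not overlap became 0 under the stricter filter, which left 12475 genes and 19 members without *spe-12*, and 1 to 4 without 1 sample. The count was 4 without water vehicle replicate 4 and without atracurium replicate 3, when 11.6% and 11.4% of all genes did not overlap. The members' median of -0.25 became -0.11 with quantile normalization, -0.064 under the stricter filter, -0.11 with sample weights and -0.26 to -0.10 without 1 sample. Replicate numbers were not taken as pairs, since the correlations of same-numbered samples were -0.01, -0.06, 0.01 and 0.04. Among 512 values of the 29 members described, 34 turned sign, in 9 members. *fog-1* was -0.039 with the length trend subtracted, with and without the replicate block, and -0.046 to 0.044 without 1 sample. *spe-41* was -0.0096 by limma-voom, -0.066 with the length trend subtracted, with and without the block, and -0.076 to 0.046 without 1 sample. *spe-42* was 0.089 with sample weights and -0.75 to 0.37 without 1 sample. *comp-1* was -0.56 to 0.052 without 1 sample. The others that turned were *spe-4* (-0.11 to 0.085), *spe-5* (-0.090 to 0.065), *spe-15* (-0.15 to 0.013), *spe-26* (-0.26 to 0.036) and *spe-49* (-0.54 to 0.015), each over all alternatives. The causes were not tested.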
